A study of Mus musculus with 9 samples.

Results

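The genes described here are 10 genes by which Leydig cells, the androgen-producing cells between the seminiferous tubules of the testis, are known: Star, Cyp11a1, Cyp17a1, Hsd3b1, Hsd3b6, Hsd17b3, Lhcgr, Insl3, Nr5a1 and Scarb1. They were chosen by name, as 10 of the 32285 genes of the files, and not by a measured value. Their UMIs, each of which counts 1 captured transcript, were summed for every mouse over Leydig cells, over every other cell type and over barcodes with 1 to 100 UMIs, where free RNA and not a cell was captured. Of 45132 barcodes past the filter, 2891 were Leydig cells.

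Leydig cells take up cholesterol and turn it into testosterone. Luteinizing hormone binds the receptor encoded by Lhcgr, cyclic AMP rises inside the cell, and the steroidogenic genes, many of which are bound by the nuclear receptor NR5A1 (steroidogenic factor), are transcribed. SCARB1 takes up cholesterol from lipoproteins and STAR carries it to the inner mitochondrial membrane, where CYP11A1 cuts its side chain to make pregnenolone. HSD3B1 and HSD3B6 turn pregnenolone into progesterone, CYP17A1 leads to androstenedione and HSD17B3 makes testosterone from it. In mouse, Hsd3b6 is known as the form of adult Leydig cells, whereas Hsd3b1 is made by fetal and adult cells. INSL3 is a peptide hormone of the same cells and is no part of steroid synthesis.

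Whole testes were taken at PND24 from 9 mice, all labelled C57BL/6, and made into 1 scRNA-seq library each. Of these mice 4 were controls, 2 were NELF-B cKO and 3 were TDP-43 cKO. In the cKO mice 1 allele of Nelfb, or of Tardbp, which encodes TDP-43, was null and the other was floxed and deleted by Stra8-iCre, a recombinase made in SG. Leydig and Sertoli cells make no Stra8-iCre and so keep the floxed allele, but like all cells of a cKO mouse they carry the null allele. The study calls the control mice wild type and says that some were littermates of the cKO mice and some were not. The name of the file of control replicate 2 holds the tag het, which is not explained, so whether every control lacked floxed and null alleles and Cre is not settled here, and the control levels of Nelfb, Tardbp and the members are those of mice labelled control. Codes that file names of some control and cKO mice share are not explained either and were not used to group or pair mice. The null allele, the deletion in germ cells and the mouse cannot be told apart in a comparison of Leydig cells. Because tubules were minced, washed and digested before the cells were captured, the number of Leydig cells in a library is no measure of their number in the testis. All comparisons are therefore made per Leydig cell or relative to the UMIs of Leydig cells.

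Libraries held 119203347 to 159407373 UMIs. Clustering of the barcodes, with the 10 genes left out, gave 25 clusters. Of these, 19 received a cell type, 11 types in all with 26314 cells. A single cluster was Leydig-like, and in it 11 of 12 Leydig markers outside the list exceeded the remaining clusters at least 2-fold, so the label held without the 10 genes. The doublet caller marked 94 barcodes (0.208%), too few to have worked, and doublets were not removed. Pairs of libraries shared at most 24 barcodes. NELF-B cKO replicate 2 and TDP-43 cKO replicate 1 stood apart from the others: they held 890 and 849 Leydig cells, against 178, 83, 102 and 51 in control replicates 1 to 4, 427 in NELF-B cKO replicate 1, and 129 and 182 in TDP-43 cKO replicates 2 and 3. Their Leydig cells were also the deepest, with medians of 27110.5 and 28220 UMIs per cell, against 16096 to 21303 in the remaining libraries.

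RNA of other cells was present in the Leydig sums and differed between the genotypes. The summed level of the 8 markers of P and D SC in Leydig cells was 912, 337, 888 and 467 CPM in controls, 400 and 65.8 CPM in NELF-B cKO animals, and 21.9, 129 and 97.0 CPM in TDP-43 cKO animals. CPM are UMIs scaled to the same total in every sum of cells, and as each transcript gives its UMIs at the 3′ end they are not divided by transcript length. Markers of interstitial cells summed to 543 to 1073 CPM, with the highest values in NELF-B cKO replicate 2 and TDP-43 cKO replicate 1 (933 CPM). Free RNA, estimated from 20 germ cell genes, made up 4.5% to 10.4% of the Leydig sums. The part of these in the values below was not tested, apart from the alternative that subtracts free RNA. Nelfb itself stood at 30.1, 23.3, 18.8 and 25.1 CPM in control Leydig cells, at 8.98 and 11.1 CPM in those of NELF-B cKO mice and at 24.0, 21.3 and 24.1 CPM in those of TDP-43 cKO mice. The NELF-B cKO values lay below all controls (log2 fold change -1.20 ± 0.22 SE) without passing the test of edgeR (adjusted p = 0.321, and 0.00475 with DESeq2). Tardbp stood at 60.5, 77.5, 67.6 and 86.1 CPM in control and at 63.0, 49.97 and 53.6 CPM in TDP-43 cKO Leydig cells (log2 fold change -0.33 ± 0.15 SE, adjusted p = 0.264, edgeR). Its UMIs come from the 3′ end and do not show whether exon 3 is present.

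On the GRCm38 build (GENCODE release M21) the 10 genes lie on 8 chromosomes. Star (chr8:25806555-25815982, plus strand) and Insl3 (chr8:71689214-71690575, plus strand) share chromosome 8. Hsd3b1 (chr3:98852194-98859794) and Hsd3b6 (chr3:98805504-98814443) lie near each other on the minus strand of chromosome 3. The others are Cyp11a1 (chr9:58006411-58027023, plus), Cyp17a1 (chr19:46667165-46673172, minus), Hsd17b3 (chr13:64058266-64089230, minus), Lhcgr (chr17:88716481-88791990, minus), Nr5a1 (chr2:38692656-38714542, minus) and Scarb1 (chr5:125277087-125341094, minus). Insl3 overlaps Jak3 on the same strand, Cyp11a1 overlaps the long noncoding gene Gm17322 and Scarb1 overlaps Gm42633 on their own strands, and Nr5a1 overlaps the antisense gene Nr5a1os, so UMIs in the shared stretches are uncertain. Transcripts of Hsd3b1 and Hsd3b6 were identical at 85.6% of 1636 aligned bases, but at 76.2% over their last 400 bases, where the reads lie, with no shared run over 17 bases. The counts of this pair of genes were therefore read separately.

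Promoters are shown for Hsd3b6 and Lhcgr, which were both higher in Leydig cells of NELF-B cKO mice than in any control, for Hsd3b1, its nearby copy that was not, and for Insl3, which gave the largest positive difference among the members in TDP-43 cKO mice. The bases before the transcription start were read from RefSeq windows of GRCm38.p6, and 6 of the 10 members, all but Star, Cyp17a1, Nr5a1 and Scarb1, had such a window. Each is given 5′ to 3′ on the strand of its gene, with matches to the searched motifs in capitals. Hsd3b6 and Hsd3b1 lie on the minus strand of chromosome 3 at chr3:98814444-98814693 and chr3:98859795-98860044, Lhcgr on the minus strand at chr17:88792015-88792264 and Insl3 on the plus strand at chr8:71689002-71689213.
Hsd3b6: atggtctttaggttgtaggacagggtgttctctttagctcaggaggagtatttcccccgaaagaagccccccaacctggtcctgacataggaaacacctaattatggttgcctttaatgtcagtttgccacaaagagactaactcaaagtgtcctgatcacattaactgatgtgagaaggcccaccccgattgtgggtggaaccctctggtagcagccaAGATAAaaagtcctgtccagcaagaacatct
Hsd3b1: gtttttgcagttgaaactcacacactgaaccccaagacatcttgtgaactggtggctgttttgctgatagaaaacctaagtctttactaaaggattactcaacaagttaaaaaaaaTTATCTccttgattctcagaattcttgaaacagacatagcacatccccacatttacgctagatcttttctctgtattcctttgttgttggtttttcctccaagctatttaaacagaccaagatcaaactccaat
Lhcgr: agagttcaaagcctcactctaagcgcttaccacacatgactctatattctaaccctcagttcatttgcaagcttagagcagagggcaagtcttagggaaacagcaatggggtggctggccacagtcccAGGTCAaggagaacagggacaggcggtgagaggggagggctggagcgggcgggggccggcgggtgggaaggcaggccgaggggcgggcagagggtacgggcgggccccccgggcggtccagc
Insl3: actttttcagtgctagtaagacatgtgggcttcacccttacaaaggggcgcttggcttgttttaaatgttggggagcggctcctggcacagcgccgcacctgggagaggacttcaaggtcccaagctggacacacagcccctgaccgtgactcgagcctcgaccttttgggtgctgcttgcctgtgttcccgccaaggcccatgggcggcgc
Both strands were searched for AGGTCA, which nuclear receptors bind, for the longer NR5A1 site AAGGTCA, which contains it, for TGACG, the core of the cyclic AMP response element, and for the GATA sites AGATAA and, as its variant, TGATAA. Hsd3b6 held AGATAA 31 bases before its start. Hsd3b1 held the same letters on the opposite strand, shown as TTATCT, 134 bases before its start. Lhcgr held AGGTCA 122 bases before its start, and the bases shown of Insl3 held no match. Of the members with a window that are not shown, Hsd17b3 held no match. A window of Cyp11a1 held AGGTCA 28 bases before its start, and another held TGACG on the opposite strand 50 bases before its own. Neither start is the gene start of Cyp11a1 given above. Among all 32851 windows of 300 bases, AAGGTCA was found in 4.72%, AGGTCA in 16.3%, TGACG in 20.8%, AGATAA in 11.2% and TGATAA in 9.05%. These matches are letters in a window and not measured sites.

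In Leydig cells of control mice the cytochrome P450 enzymes of the pathway were the highest of the 10 genes. Cyp11a1 was at 2571 ± 624 CPM and Cyp17a1 at 2534 ± 771 CPM (mean ± SD, n = 4), and their ranges overlapped. Next came Hsd3b6 (1206 ± 300 CPM) and Hsd3b1 (841 ± 234 CPM), which also overlapped, then Lhcgr (472 ± 119 CPM) and Star (336 ± 63.4 CPM), which overlapped in turn. The lowest were Insl3 (148 ± 47.3 CPM), Hsd17b3 (118 ± 38.8 CPM), Scarb1 (97.4 ± 16.2 CPM) and Nr5a1 (88.4 ± 3.56 CPM), neighbours of which did not differ beyond their spread. Together the 10 genes took 1.04%, 0.733%, 0.793% and 0.795% of Leydig UMIs in controls, 1.04% and 0.828% in NELF-B cKO animals, and 0.712%, 0.565% and 0.684% in TDP-43 cKO animals. The TDP-43 cKO shares lay below those of all the other mice.

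The genes differed in how closely they kept to Leydig cells. Of the UMIs of Hsd3b6 in barcodes past the filter, 95.4% to 98.1% lay in Leydig cells over the 9 mice, and the shares were 96.7% to 97.9% for Cyp17a1, 91.2% to 97.3% for Cyp11a1, 93.5% to 98.1% for Insl3, 91.1% to 97.7% for Hsd3b1 and 86.6% to 97.1% for Lhcgr. The shares of Star (29.8% to 94.3%) and Hsd17b3 (39.3% to 96.2%) ranged widely between mice. Those of Nr5a1 (19.8% to 77.1%) and Scarb1 (5.02% to 57.4%) reached the lowest values, and Scarb1 had most of its UMIs in other barcodes in all mice except NELF-B cKO replicate 2. These shares move with the number of Leydig cells captured.

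**Figure D1:**
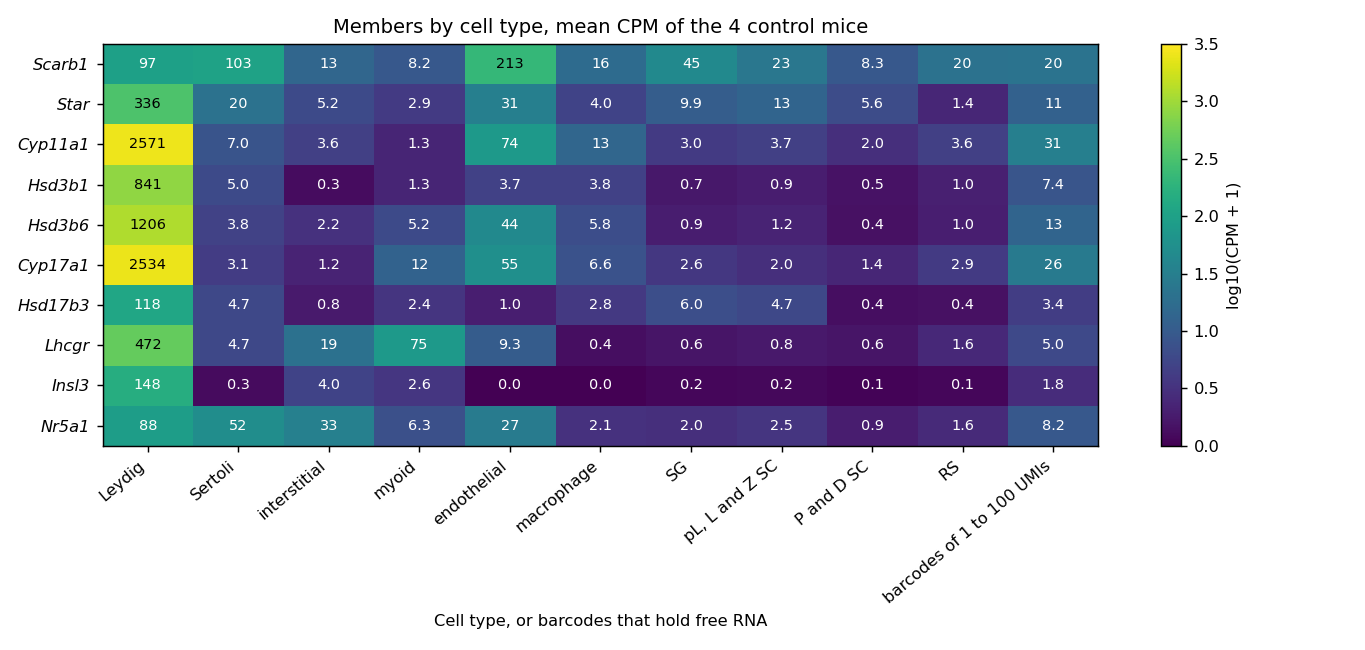
Mean level of the 10 genes in each cell type of the 4 control mice and in barcodes of 1 to 100 UMIs, in CPM with a logarithmic colour scale. All 10 genes are high in Leydig cells, Scarb1 and Nr5a1 also in Sertoli cells (103 and 51.6 CPM), and Scarb1 in endothelial cells (213 CPM).

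Outside Leydig cells the mean control levels of Cyp11a1, Cyp17a1, Hsd3b1, Hsd3b6 and Insl3 in germ and Sertoli cells were all at or below 6.997 CPM, under their mean level in free RNA (31.2, 25.8, 7.37, 12.5 and 1.77 CPM). The part of free RNA in these low levels was not tested. In 1 library this did not hold for Hsd3b1, which was at 16.0 CPM (18 UMIs) in Sertoli cells and at 8.02 CPM in free RNA of control replicate 1. Scarb1 was at 103 ± 9.68 CPM in Sertoli cells, at 44.6 ± 2.77 CPM in SG, at 23.2 ± 3.47 CPM in SC of the pL, L and Z stages and at 19.7 ± 7.27 CPM in RS, with 20.5 ± 3.58 CPM in free RNA (n = 4 each). Its level in endothelial cells, 213 ± 75.2 CPM, lay above that in Leydig cells, but rests on 26 to 132 UMIs in 10 to 25 cells per control mouse. Nr5a1 was at 51.6 ± 4.59 CPM in Sertoli cells, at 32.8 ± 8.91 CPM in interstitial cells and at 27.2 ± 8.36 CPM in endothelial cells, against 8.18 ± 2.75 CPM in free RNA. Lhcgr was at 75.1 ± 23.6 CPM in myoid cells, which rests on 5 to 17 UMIs per control mouse, and at 19.3 ± 12.4 CPM in interstitial cells. Star was at 19.6 ± 2.99 CPM in Sertoli cells, 12.5 ± 1.83 CPM in SC of the pL, L and Z stages and 9.91 ± 0.946 CPM in SG, next to 11.1 ± 0.964 CPM in free RNA. Because cell types are clusters of the same counts, these levels are a description with no test.

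Free RNA of the 10 genes followed the Leydig cells of a library. Their summed level in barcodes of 1 to 100 UMIs was 162, 127, 120 and 98.3 CPM in controls, 619 and 1708 CPM in NELF-B cKO animals, and 1640, 214 and 306 CPM in TDP-43 cKO animals. The libraries with the most Leydig cells had the highest values. In SG, which should lack most of these transcripts, Cyp17a1 was seen in 0.112% to 2.62% of cells and Lhcgr in 0% to 2.44% after each cell had been thinned to 2000 UMIs, with the highest shares of Lhcgr in those same libraries.

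The first comparison asked whether Leydig cells of NELF-B cKO mice differed from control in these genes. No member passed the test: 0 of 10 were called by edgeR at an adjusted p under 0.05, beside 0 of all 13587 genes tested (0%). At an unadjusted p under 0.05, 3 members were higher and 0 lower, beside 1287 of all genes (9.47%) in either direction, and DESeq2 called 0 members and 34 genes (0.216%). The 3 were Lhcgr, Star and Hsd3b6, and these were also the members whose 2 NELF-B cKO mice both lay above all 4 controls. Of all genes 6.79% lay above in this way and 8.24% below.

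Lhcgr, the receptor through which luteinizing hormone acts, was at 494, 629, 411 and 354 CPM in controls and at 714 and 875 CPM in NELF-B cKO animals. Both NELF-B cKO values lay above every control (log2 fold change 0.81 ± 0.28 SE, adjusted p = 0.515, edgeR). Nr5a1, the transcription factor of the pathway, was at 91.9, 83.9, 87.4 and 90.6 CPM in control and at 67.4 and 74.2 CPM in NELF-B cKO Leydig cells. In CPM it was the 1 member whose NELF-B cKO mice lay below all controls (log2 fold change -0.26 ± 0.15 SE, adjusted p = 0.576, edgeR). In UMIs per Leydig cell the groups overlapped for Nr5a1. With the number of Leydig cells as library size its log2 fold change was -0.01 ± 0.36 SE (adjusted p = 0.990, edgeR).

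Of the genes that bring cholesterol in, Star was at 379, 401, 297 and 269 CPM in controls and at 455 and 600 CPM in NELF-B cKO animals, with no overlap (log2 fold change 0.71 ± 0.26 SE, adjusted p = 0.515, edgeR). Scarb1, at 118, 100, 78.5 and 93.3 CPM in control and 125 and 95.4 CPM in NELF-B cKO Leydig cells, overlapped (log2 fold change 0.22 ± 0.19 SE).

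Among the enzymes, Hsd3b6 was at 1504, 1304, 1225 and 792 CPM in controls and at 1644 and 2208 CPM in NELF-B cKO animals, the latter above all controls (log2 fold change 0.74 ± 0.24 SE, adjusted p = 0.515, edgeR). Its copy Hsd3b1 went the other way within the spread, with 665, 688, 838 and 1173 CPM in control and 590 and 693 CPM in NELF-B cKO Leydig cells (log2 fold change -0.32 ± 0.25 SE). Cyp11a1 was at 3193, 1705, 2654 and 2733 CPM in controls and at 2551 and 1612 CPM in NELF-B cKO animals, and Cyp17a1 at 3685, 2255, 2074 and 2122 CPM and at 3836 and 1831 CPM. In both, 1 NELF-B cKO mouse lay inside or above the control range and the other below it (log2 fold changes -0.26 ± 0.22 SE and 0.19 ± 0.29 SE). Hsd17b3, the last step to testosterone, was at 166, 71.6, 114 and 118 CPM in control and at 192 and 109 CPM in NELF-B cKO Leydig cells (log2 fold change 0.39 ± 0.27 SE), and the hormone gene Insl3 at 136, 93.5, 157 and 207 CPM and at 185 and 186 CPM (log2 fold change 0.40 ± 0.23 SE). All of these overlapped between the groups.

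**Figure D2:**
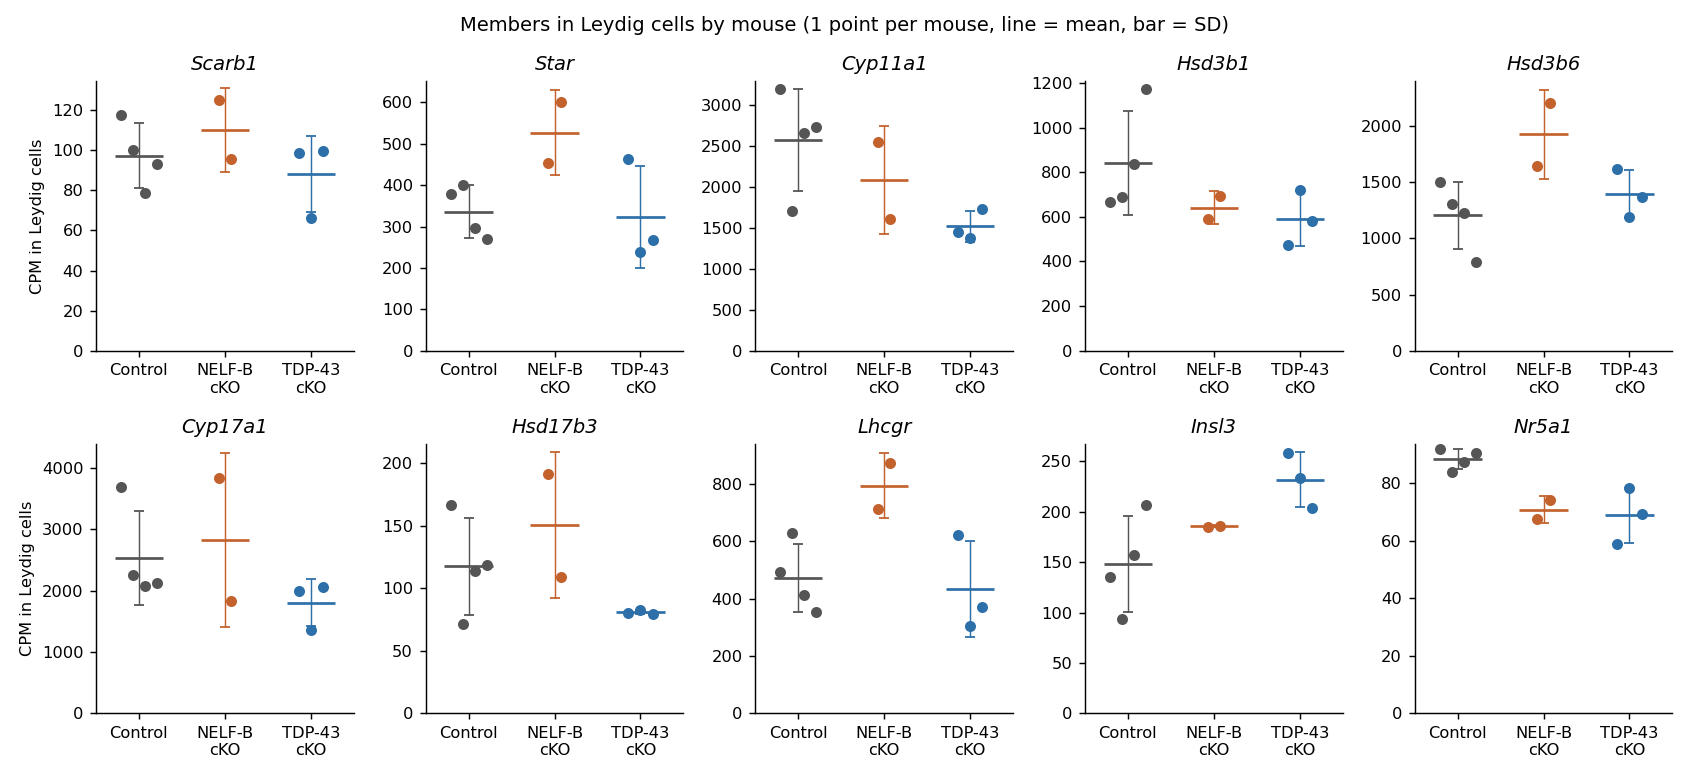
Level of each of the 10 genes in Leydig cells in CPM, with 1 point per mouse (4 control, 2 NELF-B cKO, 3 TDP-43 cKO) and a bar at the mean of each group. Lhcgr, Star and Hsd3b6 have both NELF-B cKO mice above all controls, and Cyp17a1 and Nr5a1 have all 3 TDP-43 cKO mice below them.

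Without NELF-B cKO replicate 2 and TDP-43 cKO replicate 1, a comparison chosen after the data had been seen, the NELF-B cKO differences were 0.60 for Lhcgr, 0.44 for Star and 0.45 for Hsd3b6 (log2, with 1 NELF-B cKO mouse left, which is assumed to vary like the other groups). With the number of Leydig cells as library size, which compares UMIs per Leydig cell, they were 1.03 ± 0.40, 0.95 ± 0.39 and 1.00 ± 0.35 SE. None passed (adjusted p = 0.646, 0.685 and 0.600, edgeR). Each Leydig cell held 8.67, 16.6, 8.17 and 7.75 UMIs of Lhcgr in controls and 16.0 and 26.1 in NELF-B cKO animals, so that control replicate 2, whose Leydig cells were the deepest of the controls, came above NELF-B cKO replicate 1 on that scale. The same 2 mice overlapped in this way for Star. After thinning to 2000 UMIs per cell, 52.8%, 59.0%, 48.0% and 54.9% of control Leydig cells and 71.1% and 74.0% of NELF-B cKO Leydig cells had a UMI of Lhcgr. Unthinned, the shares were 92.2% to 97.6% and 98.8% and 98.7%. The same shares overlapped for Hsd3b6 after thinning, at 60.8% to 84.3% in control and 82.4% and 89.3% in NELF-B cKO Leydig cells, and for Star, at 33.3% to 51.1% and 48.1% and 57.3%.

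In Leydig cells of TDP-43 cKO mice, too, 0 of 10 members were called by edgeR, beside 0 of 13587 genes (0%). At an unadjusted p under 0.05, 1 member was higher and 2 were lower, beside 2626 of all genes (19.3%). DESeq2 called 2 members, Cyp11a1 as lower and Insl3 as higher, beside 1311 of 18225 genes (7.19%). The same 2 members were called by edgeR without the filter on low counts (adjusted p = 0.0253 and 0.0129). In that fit the tool stayed the same and only the filter changed, and 1459 genes were called. Between edgeR and DESeq2 the tool and the genes tested changed together, and the part of each was not tested. Of the members, 8 had a negative log2 fold change, with a median of -0.21 over the 10, while the median over all genes was 0.04.

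Cyp11a1, which commits cholesterol to steroid synthesis, was at 1453, 1374 and 1732 CPM in TDP-43 cKO animals, against 3193, 1705, 2654 and 2733 CPM in controls. All but control replicate 2 lay above the TDP-43 cKO mice (log2 fold change -0.71 ± 0.20 SE, adjusted p = 0.0877, edgeR, and 0.0153 with DESeq2). Per Leydig cell there were 37.9 ± 11.8 UMIs of Cyp11a1 in TDP-43 cKO (n = 3) and 53.4 ± 6.26 in control mice (mean ± SD, n = 4). The groups overlapped on that scale, where TDP-43 cKO replicate 1 lay above control replicate 2. After thinning, 63.0%, 64.3% and 68.7% of TDP-43 cKO Leydig cells had a UMI of Cyp11a1, below the 86.0%, 77.1%, 83.3% and 84.3% of control, and unthinned the shares were 87.4%, 80.6% and 84.6%, below 92.2% to 94.1%.

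Insl3 was at 259, 234 and 204 CPM in TDP-43 cKO animals and at 136, 93.5, 157 and 207 CPM in controls. Only control replicate 4, with 51 Leydig cells, reached the TDP-43 cKO range (log2 fold change 0.71 ± 0.21 SE, adjusted p = 0.0936, edgeR, and 0.0323 with DESeq2). With the replicate number as a block the adjusted p was 0.162 (edgeR). These numbers need not pair mice, and control replicate 4 shares its number with no cKO mouse. The block leaves little to estimate the spread, so a gene that does not pass there shows little. After thinning, 37.8%, 32.6% and 32.4% of TDP-43 cKO Leydig cells had a UMI of Insl3, against 22.5%, 14.5%, 26.5% and 37.3% of control, so the shares overlapped. As INSL3 is no steroidogenic enzyme, it was set beside Cyp11a1 within each library, a ratio chosen after the values had been seen and given without a test. For 100 UMIs of Cyp11a1 there were 17.8, 17.0 and 11.8 UMIs of Insl3 in TDP-43 cKO Leydig cells, 7.27 and 11.6 in NELF-B cKO and 4.25, 5.48, 5.92 and 7.58 in control. All 3 TDP-43 cKO values lay above those of all the other mice.

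Cyp17a1, the enzyme that leads from progesterone to androgen, was at 1990, 1362 and 2062 CPM in TDP-43 cKO animals, all below the lowest control at 2074 CPM (log2 fold change -0.44 ± 0.26 SE, adjusted p = 0.415, edgeR). Per Leydig cell the groups overlapped, as TDP-43 cKO replicate 1 held more UMIs of Cyp17a1 than any control. With the number of Leydig cells as library size the log2 fold change was -0.19 ± 0.30 SE (adjusted p = 0.804, edgeR). Nr5a1, at 58.9, 78.2 and 69.2 CPM, also lay below all controls, the lowest of which was at 83.9 CPM (log2 fold change -0.32 ± 0.14 SE, adjusted p = 0.227, edgeR). It, too, overlapped per Leydig cell, with a log2 fold change of -0.17 ± 0.32 SE on that scale (adjusted p = 0.830, edgeR). In CPM these 2 were the members without overlap between TDP-43 cKO and control mice, both lower, beside 12.4% of all genes that were lower and 5.89% that were higher in this way. Hsd3b1 (473, 721 and 581 CPM, log2 fold change -0.45 ± 0.22 SE) and Hsd17b3 (80.6, 82.3 and 79.2 CPM, log2 fold change -0.50 ± 0.25 SE) overlapped with control.

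The members that had been higher in NELF-B cKO mice overlapped with control in TDP-43 cKO mice. Lhcgr was at 623, 304 and 372 CPM (log2 fold change -0.08 ± 0.26 SE), Star at 464, 239 and 267 CPM (-0.01 ± 0.24 SE) and Hsd3b6 at 1617, 1192 and 1373 CPM (0.25 ± 0.21 SE). In each of these, TDP-43 cKO replicate 1, with the most and deepest Leydig cells of its group, had the highest value of the 3. Its Star and Hsd3b6 levels lay above every control, as both NELF-B cKO mice had. Scarb1 was at 98.7, 66.3 and 99.5 CPM (-0.09 ± 0.17 SE). The signs for Star, Lhcgr and Scarb1 turned under some of the other settings tried.

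**Figure D3:**
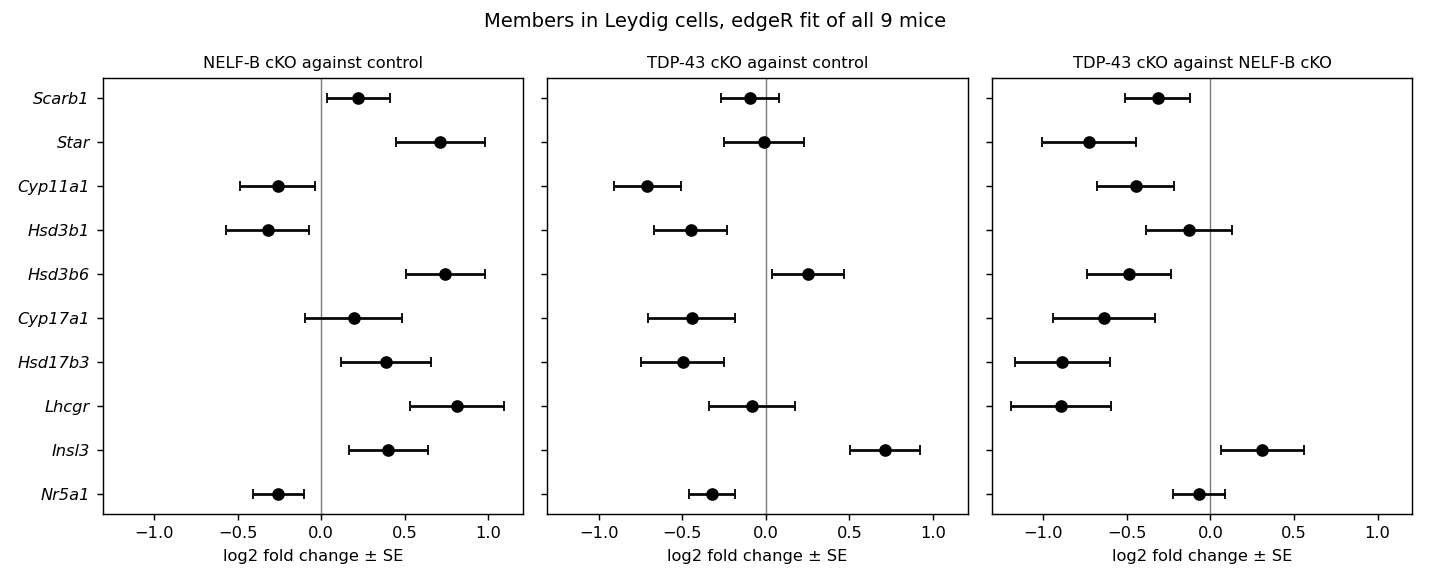
Log2 fold change of each of the 10 genes in Leydig cells from edgeR, with bars of ± 1 SE, for NELF-B cKO against control, TDP-43 cKO against control and TDP-43 cKO against NELF-B cKO. No gene passes an adjusted p under 0.05 in any of the 3 comparisons, and the largest differences are -0.89 for both Hsd17b3 and Lhcgr between the cKO genotypes.

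Without NELF-B cKO replicate 2 and TDP-43 cKO replicate 1, the TDP-43 cKO differences were -0.71 for Cyp11a1 (adjusted p = 0.0737) and 0.60 for Insl3 (adjusted p = 0.201, edgeR). Germ cell RNA moved with this comparison, since markers of P and D SC were 337 to 912 CPM in control and 21.9 to 129 CPM in TDP-43 cKO Leydig sums. With the fit restricted to the control and TDP-43 cKO mice, Cyp11a1 passed (adjusted p = 0.0397, edgeR). Its log2 fold change was -0.76 without NELF-B cKO replicate 1 and -0.72 without replicate 2. With the number of Leydig cells as library size it was -0.50 ± 0.28 SE and did not pass (adjusted p = 0.511, edgeR). With the replicate number as a block, under the limits given above, Cyp11a1 did not pass either (adjusted p = 0.175, edgeR). Of the 22 alternatives, 5 called it. In those fits without 1 NELF-B cKO mouse, 1161 and 1251 of all genes were called, and 934 in the fit of 2 genotypes.

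The 2 cKO genotypes were then compared directly, which tests whether their differences from the shared controls differ. Again 0 of 10 members and 0 of 13587 genes (0%) were called by edgeR. At an unadjusted p under 0.05, 0 members were higher in TDP-43 cKO than in NELF-B cKO Leydig cells and 3 were lower, beside 1180 of all genes (8.68%), and DESeq2 called 0 members and 65 genes (0.578%). The 3 were Hsd17b3 (log2 fold change -0.89 ± 0.28 SE, adjusted p = 0.472), Lhcgr (-0.89 ± 0.30 SE, adjusted p = 0.483) and Star (-0.72 ± 0.28 SE, adjusted p = 0.540, edgeR). Lower without overlap were 3 members, Hsd17b3, Lhcgr and Hsd3b6, beside 10% of all genes, and higher without overlap was 1, Insl3, beside 14.1%. For Star, TDP-43 cKO replicate 1 lay above NELF-B cKO replicate 1.

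In an exact permutation test of the CPM of single genes over mice, the two-sided p was taken as 2 times the smaller one-sided p. Counted in this way it cannot reach 0.05 with these numbers: the smallest p is 0.133 for 4 against 2 mice, 0.0571 for 4 against 3 and 0.2 for 3 against 2. The smallest value was reached by Lhcgr, Star, Hsd3b6 and Nr5a1 in NELF-B cKO and by Cyp17a1 and Nr5a1 in TDP-43 cKO mice, against control. Cyp11a1 and Insl3 gave an exact permutation p of 0.114 in TDP-43 cKO mice, as 1 control mouse overlapped.

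The 2 genes of the same enzyme step, Hsd3b6 and Hsd3b1, were in different proportion from mouse to mouse. For 100 UMIs of Hsd3b1 there were 226, 189, 146 and 67.5 UMIs of Hsd3b6 in control Leydig cells, 279 and 318 in NELF-B cKO and 342, 165 and 236 in TDP-43 cKO. Control replicate 4 was the only mouse with more Hsd3b1 than Hsd3b6, and both NELF-B cKO mice lay above all controls. Their ranges overlapped with those of the TDP-43 cKO mice. This ratio, too, was chosen after the values had been seen and is given without a test.

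**Figure D4:**
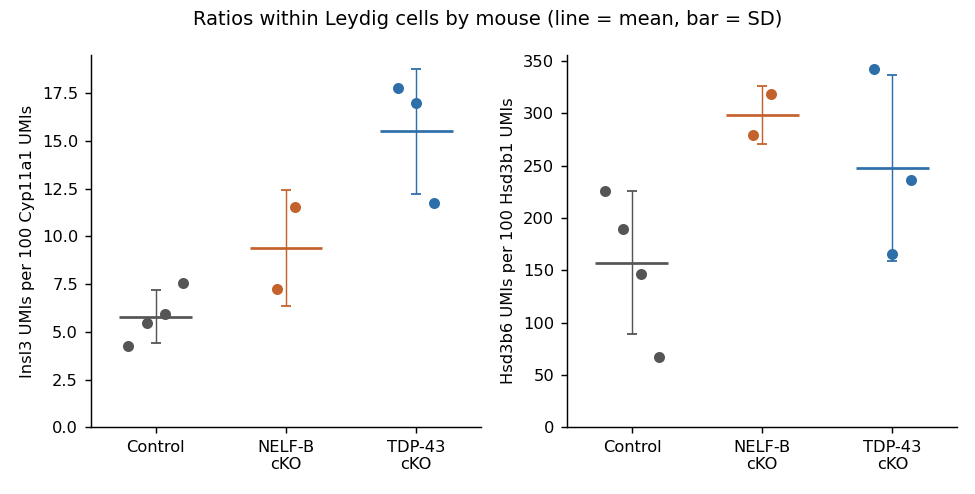
UMIs of Insl3 per 100 UMIs of Cyp11a1 and of Hsd3b6 per 100 UMIs of Hsd3b1 in Leydig cells, with 1 point per mouse. For Insl3 the TDP-43 cKO mice (11.8 to 17.8) lie above the control mice (4.25 to 7.58), and for Hsd3b6 the NELF-B cKO mice (279 and 318) lie above the control mice (67.5 to 226).

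Other genes of the pathway were taken from lists of names. Of 35 partners of the steroid enzymes, 31 were tested, and edgeR called 0 in any of the 3 comparisons. At an unadjusted p under 0.05, 5 were higher and 0 lower in NELF-B cKO and 2 higher and 3 lower in TDP-43 cKO mice against control, and 0 were higher and 8 lower in TDP-43 cKO than in NELF-B cKO mice, beside 9.47%, 19.3% and 8.68% of all genes in either direction. DESeq2 called 1 as lower in TDP-43 cKO mice against control (Cyp19a1, aromatase) and 1 as lower between the cKO genotypes (Fdx1). Of all genes it called 7.19% and 0.578% in these comparisons, in either direction. Cyp19a1, named here after its value was seen, was at 17.6, 11.9, 27.2 and 8.97 CPM in control, 11.9 and 1.81 CPM in NELF-B cKO and 0.103, 2.05 and 2.00 CPM in TDP-43 cKO Leydig sums. It moved with the markers of P and D SC (337 to 912 CPM in control and 21.9 to 129 CPM in TDP-43 cKO Leydig sums), and it was among the leading genes of an unnamed cluster whose best match was P and D SC, at 397 to 553 CPM in controls there. The part of germ cell RNA in its Leydig value was not tested. Their median log2 fold change was 0.22 in NELF-B cKO and 0.05 in TDP-43 cKO mice against control, beside 0.01 and 0.04 over all genes, while that of the members was 0.30 and -0.21. Fdx1, the ferredoxin that passes electrons to CYP11A1, was at 2110, 2024, 1701 and 1706 CPM in controls, at 2744 and 1955 CPM in NELF-B cKO animals and at 1559, 1208 and 1621 CPM in TDP-43 cKO animals. The TDP-43 cKO mice lay below all controls and below both NELF-B cKO mice (log2 fold change -0.32 ± 0.14 SE against control, adjusted p = 0.233, and -0.68 ± 0.16 SE against NELF-B cKO, adjusted p = 0.423, edgeR, and 0.0275 with DESeq2). Soat1, which stores cholesterol as ester, was at 466, 580, 523 and 535 CPM in control, at 620 and 739 CPM in NELF-B cKO and at 556, 283 and 313 CPM in TDP-43 cKO Leydig cells. Mgarp and Abca1, the cholesterol exporter, differed by at most 0.07 on the log2 scale in either cKO against control.

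Of 40 genes of luteinizing hormone signalling and its regulators, 35 were tested and edgeR called 0 in any comparison. Unadjusted p-values under 0.05 were found for 2 higher and 1 lower genes in NELF-B cKO and 5 higher and 0 lower in TDP-43 cKO mice against control, and for 1 higher and 2 lower between the cKO genotypes, beside the same shares of all genes (9.47%, 19.3% and 8.68%). DESeq2 called 1, Nr2f2, a transcription factor of interstitial cells named here after its value was seen, as higher in TDP-43 cKO mice against control. It called 7.19% of all genes in that comparison, in either direction. The list had medians of 0.10 in NELF-B cKO and 0.13 in TDP-43 cKO mice against control. Prlr, the prolactin receptor, which is also among the markers that named the Leydig cluster, was at 1339, 1237, 1148 and 1128 CPM in controls and at 1711 and 1562 CPM in NELF-B cKO animals, the latter above all controls (log2 fold change 0.49 ± 0.13 SE, adjusted p = 0.470, edgeR). Gnas, the G protein subunit that couples the receptor to adenylate cyclase, differed by -0.01 ± 0.15 SE in NELF-B cKO and 0.08 ± 0.13 SE in TDP-43 cKO mice. Fos and Jun, immediate early genes that tissue dissociation is known to induce, were at 1400 to 2316 and 1150 to 1832 CPM in control and within 1818 to 2857 and 1537 to 2182 CPM in the cKO mice. Of the 23 genes of cholesterol synthesis all were tested and edgeR called 0 in any comparison. Under an unadjusted p of 0.05, 2 were higher and 0 lower in NELF-B cKO and 1 higher and 1 lower in TDP-43 cKO mice against control, and 0 were higher and 2 lower between the cKO genotypes, of which DESeq2 called 1 (Sc5d, named after its value was seen) as lower. The shares of all genes are again 9.47%, 19.3% and 8.68%, and DESeq2 called 0.578% of all genes between the cKO genotypes. In NELF-B cKO mice 21 of the 23 had a positive log2 fold change, with a median of 0.21, and in TDP-43 cKO mice 16 of the 23, with a median of 0.06, beside 52.1% and 55.8% of all genes with a positive value. Among the most abundant of them, Fdps (log2 fold changes 0.10 and 0.14), Hmgcs1 (0.03 and 0.10) and Msmo1 (0.22 and 0.19) overlapped with control in both cKO genotypes.

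Sertoli cells, the somatic cells inside the tubules, were the other type in which members were tested, since Nr5a1 and Scarb1 are known to be made there. In TDP-43 cKO mice 1 of the 10 members, Star, rose, beside 1632 of 15337 genes called (10.6%) and 4.92% called as higher. At an unadjusted p under 0.05 there were 6 of the 10 members, all higher (Star, Scarb1, Nr5a1, Insl3, Cyp11a1 and Cyp17a1), beside 5336 genes (34.8%) in either direction. DESeq2 called 2 members, Star and Scarb1, both higher, beside 3631 genes (19.3%), and 6.09% as higher. In NELF-B cKO mice 0 of 10 members and 0 genes (0%) were called by edgeR, 5 members, all higher (Star, Hsd3b6, Insl3, Cyp11a1 and Cyp17a1), and 1990 genes (13%) in either direction had an unadjusted p under 0.05, and DESeq2 called 2 members, Star and Cyp17a1, and 78 genes (0.587%).

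Star was at 23.0, 21.0, 17.3 and 16.9 CPM in control, 36.5 and 73.9 CPM in NELF-B cKO and 64.0, 39.8 and 49.7 CPM in TDP-43 cKO Sertoli cells. Every cKO mouse lay above every control (log2 fold change 1.46 ± 0.27 SE, adjusted p = 0.0394 in TDP-43 cKO, and 1.56 ± 0.30 SE, adjusted p = 0.259 in NELF-B cKO, edgeR). The share of all genes whose groups did not overlap was not counted in Sertoli cells. A lack of overlap there, for Star or for the members below, is therefore given without that share. The TDP-43 cKO call was lost without any 1 of the control or TDP-43 cKO mice (adjusted p from 0.0671 to 0.132), as were the calls of all other genes, and with the replicate number as a block (adjusted p = 0.177). The limits of the block given for Insl3 hold here too. The TDP-43 cKO difference was 1.21 to 1.56 on the log2 scale with 1 mouse left out and 1.40 ± 0.36 SE with the block. The NELF-B cKO difference ranged more widely, from 0.93 without NELF-B cKO replicate 2 to 1.94 without replicate 1, where it passed (adjusted p = 0.0281, edgeR). Star in free RNA was at 12.3, 11.2, 9.94 and 10.95 CPM in control, 30.0 and 126 CPM in NELF-B cKO and 108, 17.6 and 25.7 CPM in TDP-43 cKO mice, and so was also higher in every cKO mouse. For 100 UMIs of Cyp11a1 and Cyp17a1 together there were 86.7, 322, 292 and 1117 UMIs of Star in control, 55.7 and 30.5 in NELF-B cKO and 138, 412 and 71.9 in TDP-43 cKO Sertoli cells. In free RNA of the same libraries there were 7.85 to 36.1. The control ratios rest on 6 to 30 UMIs of Cyp11a1 and Cyp17a1. The Sertoli level of Star in CPM was above that of free RNA in TDP-43 cKO replicates 2 and 3 and below it in replicate 1.

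Sertoli cells fell into 3 clusters whose shares differed between the genotypes. The cluster of deep cells, with a median of 34978 UMIs, held 10.3%, 13.7%, 30.5% and 25.8% of control, 16.3% and 22.8% of NELF-B cKO and 64.8%, 46.4% and 61.2% of TDP-43 cKO Sertoli cells. In that cluster Star was at 33.6, 29.6, 17.9 and 17.2 CPM in control, 41.9 and 80.2 CPM in NELF-B cKO and 65.8, 43.0 and 53.9 CPM in TDP-43 cKO mice. Every cKO mouse lay above every control within it too, while both cKO genotypes overlapped, a comparison made after the data had been seen. In the largest cluster of shallow cells Star was at 8.97, 6.86, 0 and 5.51 CPM in control, 31.7 and 34.9 CPM in NELF-B cKO and 29.9, 18.1 and 9.25 CPM in TDP-43 cKO mice, from 0 to 26 UMIs per mouse. Every cKO mouse lay above the controls there, but TDP-43 cKO replicate 3 and control replicate 1 each held just 4 UMIs of Star. In the remaining cluster it was at 29.0, 9.55, 26.1 and 29.8 CPM in control, 5.96 and 68.4 CPM in NELF-B cKO and 18.0, 25.3 and 15.5 CPM in TDP-43 cKO mice, from 1 to 27 UMIs per mouse, so that there the cKO mice overlapped with control and all 3 TDP-43 cKO mice lay inside its range. Nr5a1 in the cluster of deep cells was at 77.8, 60.4, 62.3 and 68.4 CPM in control and 79.4, 64.3 and 61.0 CPM in TDP-43 cKO mice, which overlap. Over all Sertoli cells it had been at 54.9, 45.2, 51.3 and 54.9 CPM and at 77.7, 60.6 and 57.7 CPM, with no overlap (log2 fold change 0.40 ± 0.16 SE, adjusted p = 0.107, edgeR).

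Scarb1, the lipoprotein receptor, was at 89.5, 111, 102 and 109 CPM in control, 96.6 and 198 CPM in NELF-B cKO and 186, 144 and 157 CPM in TDP-43 cKO Sertoli cells. The TDP-43 cKO mice lay above all controls (log2 fold change 0.70 ± 0.23 SE, adjusted p = 0.0692, edgeR, and 0.0468 with DESeq2). Within the cluster of deep cells the values were 111, 154, 123 and 127 CPM in control and 191, 157 and 167 CPM in TDP-43 cKO mice. Free RNA of Scarb1 was at 15.8, 24.0, 22.4 and 19.8 CPM in control, 23.0 and 62.3 CPM in NELF-B cKO and 72.2, 61.6 and 52.7 CPM in TDP-43 cKO mice, and its part in the Sertoli values was not tested.

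**Figure D5:**
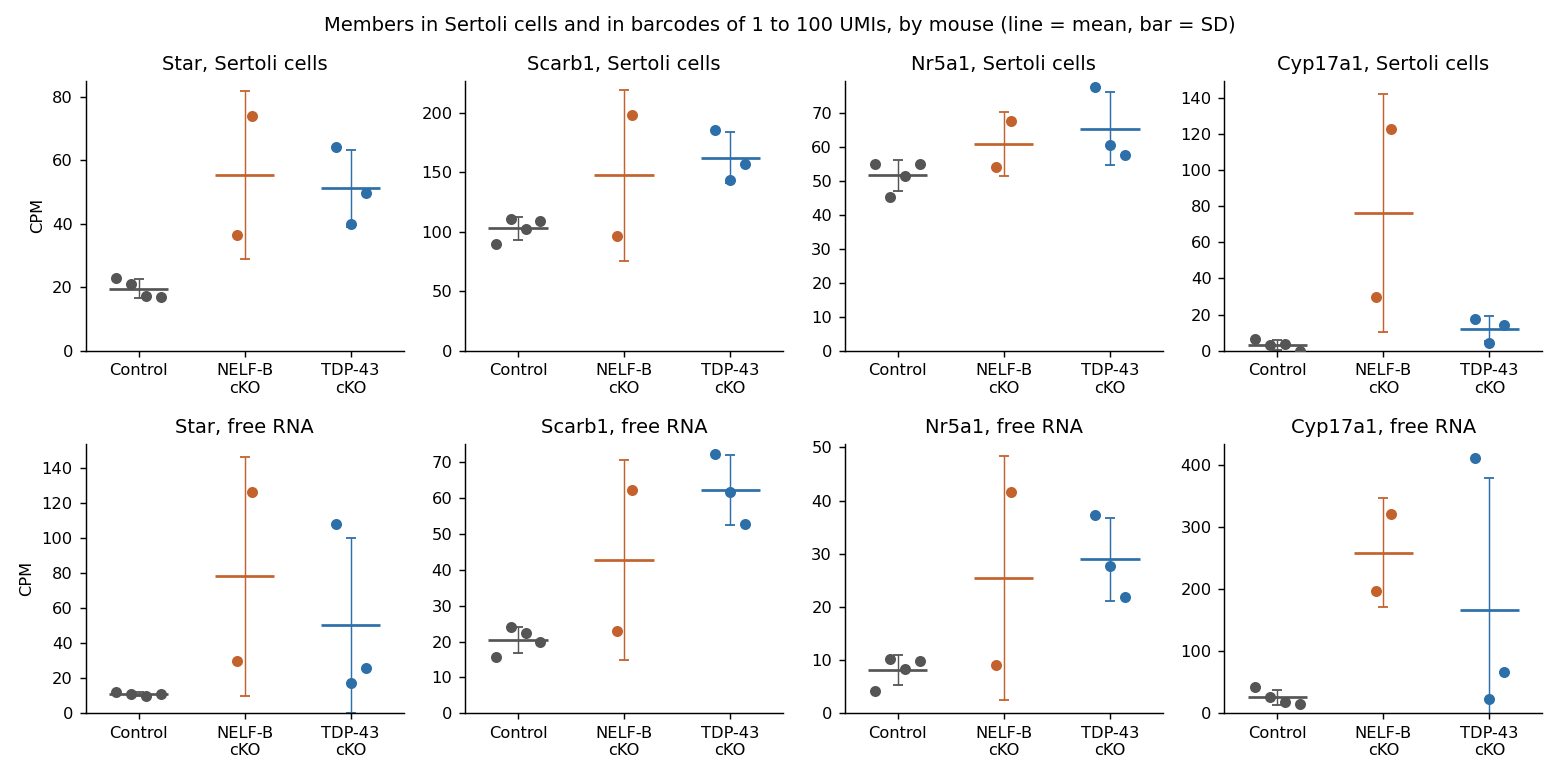
Level of Star, Scarb1, Nr5a1 and Cyp17a1 in Sertoli cells and in barcodes of 1 to 100 UMIs, in CPM, with 1 point per mouse. Star in Sertoli cells is 16.9 to 23.0 CPM in control and 36.5 to 73.9 CPM in cKO mice, and free RNA of all 4 genes is highest in NELF-B cKO replicate 2 and TDP-43 cKO replicate 1.

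The other members were low in control Sertoli cells and varied with the library. Cyp17a1 was at 6.20, 2.90, 3.45 and 0 CPM in control, 29.5 and 123 CPM in NELF-B cKO and 17.7, 4.33 and 14.3 CPM in TDP-43 cKO Sertoli cells (log2 fold change 4.93 ± 0.94 SE, adjusted p = 0.259, edgeR, and 0.0441 with DESeq2 in NELF-B cKO). That difference was 3.51 without NELF-B cKO replicate 2, 4.33 without control replicate 4 and 5.60 without NELF-B cKO replicate 1, where it passed (adjusted p = 0.0344, edgeR). The corresponding free RNA was at 42.4, 26.9, 18.2 and 15.6 CPM, at 196 and 320 CPM, and at 411, 23.0 and 66.1 CPM, above the Sertoli level in each of the 9 libraries.

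Elsewhere, Hsd17b3 was at 40.1 CPM (397 UMIs) in SG of NELF-B cKO replicate 1, against 2.63 to 12.0 CPM in SG of the remaining mice, and 13.3 CPM in free RNA of the same library. The share of SG with a UMI of Hsd17b3 was not raised there. After thinning it was 1.22% of 573 SG, inside the 0.556% to 1.32% of control SG. How the UMIs were spread over single cells was not tested. Interstitial cells held Lhcgr at 6.15 to 29.9 CPM in control, 22.3 and 46.0 CPM in NELF-B cKO and 20.5 to 44.7 CPM in TDP-43 cKO mice, with the highest values in the libraries with the most Leydig cells. Nr5a1 in the same cells was at 20.7 to 41.4 CPM in control and 19.6 to 39.5 CPM in cKO mice, with full overlap. Across the 77 pairs of mouse and cell type with at least 20 cells, the genes most like the mean of the 10 members on the log2(CPM + 1) scale were Hao2 (Pearson r = 0.943), Ces1d (0.942), Serpina3g (0.934), Mt3 (0.930), Ass1 (0.929), Klk1b24 (0.928), Klhdc8a (0.917), 4930426D05Rik (0.915), Asgr1 (0.914) and Klhl14 (0.914). The members themselves ranged from 0.944 for Cyp11a1 to 0.636 for Nr5a1 and 0.529 for Scarb1 against the mean of the other 9. The pairs share mice, depth and free RNA, so these values only describe likeness.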

How the data were processed

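The authors mapped 3′ droplet libraries to mm10 with Cell Ranger (7.0.0 per the methods, with 6.1.1 for base calling, whereas the matrix headers name Cell Ranger 4, so the version that counted the UMIs, and whether intronic reads were counted, is not settled here), and the matrices they deposited hold raw counts of UMIs for every barcode, not normalized and before any choice of cells. Libraries held 119203347 to 159407373 UMIs and Leydig sums 1115191 to 29009701. Samples were grouped by the treatment named in the labels.

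The study's filter kept barcodes of more than 1000 genes and less than 10% mitochondrial UMIs, and genes found in more than 15 of them. The 3000 most variable genes, without the 10 members (7 of which had been among them), gave 40 principal components, 20 neighbours and clusters by leidenalg 0.10.2 in scanpy 1.11.5 (resolution 0.8, seed 7). A cluster took the type with the highest marker score. It stayed unnamed with a median under 2000 UMIs, over 80% of its cells from 1 mouse or fewer than 3 markers at least 2-fold up. The former 2 limits date from after a first look at clusters, and other clusterings may shift cells between types. Clustering with the members gave 2913 Leydig cells, 2887 of them the same.

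UMIs summed per mouse were tested with edgeR 4.0.16 in R 4.3.3 (filterByExpr, TMM, quasi-likelihood test, genotype only, all 9 mice in 1 fit), with Benjamini-Hochberg adjustment over all genes tested and a call at an adjusted p under 0.05. All tests were two-sided. Alternatives were DESeq2 1.42.0, no filter, the replicate number as a block, 2 genotypes only, other library sizes, thinned cells, free RNA subtracted, other cell choices and each mouse left out. In simulated counts for the 13587 genes with 200 changed, edgeR recovered 63.0% of 2-fold and 99.5% of 4-fold changes for NELF-B cKO, and 78.5% and 100% for TDP-43 cKO. The changed genes were all among the more abundant ones, and neither free RNA nor effects shared by the genes of a library were simulated. These shares therefore need not hold for the real counts. CPM and shares cover counting error and the spread between mice only, and each mouse gave 1 library.

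The members, lists and tests were chosen with earlier results of these data known. All 10 members are named. Of each pathway list the 4 genes with the highest mean CPM in Leydig cells are named, except 1 that is not reported here, beside Nelfb, Tardbp and the 10 genes most like the members. Protein sequences, sorted cells and other assays were not analysed here.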

Additional observations from a re-analysis of the deposited data

Results flagged for a closer look

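Among the 20 tests of the 10 genes for a mouse far from the others of its group, made over the 4 control mice in Leydig and in Sertoli cells, 3 passed Dixon's 95% critical value, and chance passes about 1 in 20 groups. All 3 were in control replicate 1. Cyp17a1 in its Leydig cells was at 3685 CPM (Dixon's ratio 0.888), with the remaining controls at 2074 to 2255 CPM. In its Sertoli cells Cyp11a1 was at 20.4 CPM (ratio 0.888), from 23 UMIs, and Hsd3b1 was at 16.0 CPM (ratio 0.921), from 18 UMIs, with the remaining controls at 1.51 to 3.63 and 0.987 to 2.18 CPM. Free RNA of Cyp11a1 was also highest among the controls in that library, at 45.6 CPM, whereas that of Hsd3b1 was at 8.02 CPM, below its Sertoli level and below the 8.65 CPM of control replicate 2. The part of free RNA in these values was not tested.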

How the results depend on the processing

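Of 660 values of the members in Leydig cells under the alternatives, 633 kept the direction and the side of the threshold, 20 reversed and 7 became calls. Of 260 in Sertoli cells, 242 kept both, 2 reversed, 8 became calls and 8 lost theirs. The cause of these changes was not tested. Genes called in Leydig cells numbered 0 in each comparison. For NELF-B cKO against control they were 34 with DESeq2, 33 without the filter, 2 with the number of Leydig cells as library size and 1 with thinned cells, and 0 to 12 with 1 mouse left out (12 without NELF-B cKO replicate 1, 1 without control replicate 3). For TDP-43 cKO against control they were 1311 with DESeq2, 1459 without the filter, 1 with the replicate block, 934 with 2 genotypes only, 938 with the number of Leydig cells, 57 with free RNA subtracted, 112 with thinned cells, 726 without both libraries of over 800 Leydig cells, and 0 to 1251 with 1 mouse left out. Between the cKO genotypes they were 65, 36, 1 (block), 18 (cell number), 3 (thinned) and 3 (without both libraries), and 0 to 3 with 1 mouse left out. Members called for TDP-43 cKO in Leydig cells were 2 with DESeq2 and 2 without the filter (Cyp11a1, adjusted p = 0.0253, and Insl3, adjusted p = 0.0129), 1 with 2 genotypes only and 0 to 1 with 1 mouse left out.

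In Sertoli cells 78 genes and 2 members were called for NELF-B cKO with DESeq2, and 0 to 406 and 0 to 3 with 1 mouse left out. For TDP-43 cKO the 1632 genes and 1 member became 3631 and 2 with DESeq2, 0 and 0 with the replicate block, and 0 to 3992 and 0 to 2 with 1 mouse left out. Deviations of same-numbered mice from the mean of their group gave correlations from -0.53 to 0.29. The deviations of the 2 NELF-B cKO mice mirror each other by construction. Whether the numbers pair the mice therefore cannot be told from these correlations.

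With 1 mouse left out, the NELF-B cKO values ranged from -0.41 to 0.57 for Cyp17a1 and from -0.057 to 0.67 for Hsd17b3, both reversed without NELF-B cKO replicate 1, and in Sertoli cells from -0.086 to 0.94 for Scarb1, reversed without replicate 2. For TDP-43 cKO, Star ranged from -0.35 to 0.15, Lhcgr from -0.43 to 0.10 and Scarb1 from -0.19 to 0.051, all reversed without TDP-43 cKO replicate 2, and Star and Lhcgr also without replicate 3 or control replicate 2. Lhcgr in Sertoli cells ranged from -0.59, without TDP-43 cKO replicate 1, to 1.45. With the number of Leydig cells as library size Star was 0.27, Lhcgr 0.19 and Scarb1 0.14. Star was 0.035 without the filter and Scarb1 0.018 with thinned cells. Between the cKO genotypes Hsd3b1 ranged from -0.32 to 0.068 and Nr5a1 from -0.19 to 0.080, reversed without NELF-B cKO replicate 2 or TDP-43 cKO replicate 1, and without both they were 0.16 and 0.14.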
